A study of Homo sapiens with 7 samples.

Results

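The epidermal differentiation complex is a run of genes on human chromosome 1 whose products build the outer layers of the skin. Its members were taken here by name, as the protein-coding genes on chromosome 1 called LCE, SPRR or S100A followed by a digit, together with FLG, FLG2, HRNR, RPTN, TCHH, TCHHL1, CRNN, IVL and LORICRIN. The rule found 55 of the 20033 protein-coding genes of GENCODE 44 on chromosomes 1 to 22, X and Y. The members comprised 16 S100A genes, 7 S100-fused genes, 19 LCE genes, 11 SPRR genes, and the pair IVL and LORICRIN. The rule itself reads names alone and no measured value. The members lay side by side over 1.65 Mb (hg38 chr1:151982915-153632039), with only 8 other protein-coding start sites among them.

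The study mapped 2 histone marks by ChIP-seq in HCT116 cells, a human colorectal carcinoma line of epithelial origin. All cells carried an shRNA against UHRF1 that doxycycline switches on, and all libraries used here came from cells kept 14 days without doxycycline (NoDox, the baseline state), so no knockdown was compared. The libraries were 2 of H3K27me3 and 2 of H3K9me3 from shUHRF1 Clone 3, 2 of H3K27me3 from shUHRF1 Clone 6, and 1 input of Clone 3. Each clone was grown from a single cell, so a difference between them is a difference between 2 cell lineages. The replicates of a clone and mark had been merged into 1 list of domains, and further lists held the domains that the clones shared. No SD, interval or test could therefore be attached to a state or a length, and the lists do not give the depth behind them. The study's methods state a minimum number of read pairs per library, but the number reached in each library was not analysed here. RNA was not measured in these files. In bulk chromatin, a mark carried by fewer cells and less mark per cell cannot be told apart. H3K9me3 of Clone 6 was not analysed here except through the clone-shared list.

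Keratinocytes at the end of their differentiation switch on many of these genes and assemble the cornified envelope, a sheet of crosslinked protein that replaces the cell membrane. S100 proteins bind calcium, S100-fused proteins such as filaggrin bundle keratin filaments or fill the envelope, and involucrin, loricrin, the small proline-rich (SPRR) proteins and the late cornified envelope (LCE) proteins are the building blocks that transglutaminases join. H3K27me3 is the repressive mark laid down by Polycomb repressive complex 2, often over developmental genes that a cell type does not use, and H3K9me3 marks constitutive heterochromatin. The question was which members lay within broad domains of either mark in these colorectal cells, and whether the clones gave the same answer.

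H3K27me3 domains held the start sites of 43 of the 55 members (78.2%) in Clone 3, 43 in Clone 6 and 43 in the clone-shared list. Over all protein-coding genes the shares were 6.44% in Clone 3, 7.97% in Clone 6 and 5.32% in the clone-shared list. Neighbouring members sat in the same few domains, so the 43 members are not 43 separate observations. Every LCE gene (19 of 19), every SPRR gene (11 of 11), IVL and LORICRIN started inside a domain in both clones. The S100-fused genes did so with 1 exception (6 of 7), and the S100A genes in the minority (5 of 16, 31.2%). H3K9me3 domains held none of the members in Clone 3 (0 of 55, against 3.35% of all protein-coding genes) and none in the clone-shared list (0 of 55, against 3.24%).

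In order along the chromosome, the members began outside, passed inside, and ended outside. S100A10 and S100A11 started outside every H3K27me3 domain. TCHHL1 and TCHH started inside, RPTN outside, and HRNR, FLG, FLG2 and CRNN inside. The unbroken series inside then ran through LCE5A, LCE3E, LCE3D, LCE3C, LCE3B, LCE3A, LCE2D, LCE2C, LCE2B, LCE2A, LCE4A, LCE1F, LCE1E, LCE1D, LCE1C, LCE1B, LCE1A, LCE6A and LCE7A. It went on through IVL, SPRR5, SPRR4, SPRR1A, SPRR3, SPRR1B, SPRR2D, SPRR2A, SPRR2B, SPRR2E, SPRR2F, SPRR2G and LORICRIN, and closed with S100A9, S100A12, S100A8, S100A7A and S100A7. The last members, S100A6, S100A5, S100A3, S100A4, S100A2, S100A16, S100A14, S100A1 and S100A13, again started outside. These states were the same in Clone 3, in Clone 6 and in the clone-shared list, and for each of the 55 members the state was "outside" in both H3K9me3 lists.

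**Figure D1:**
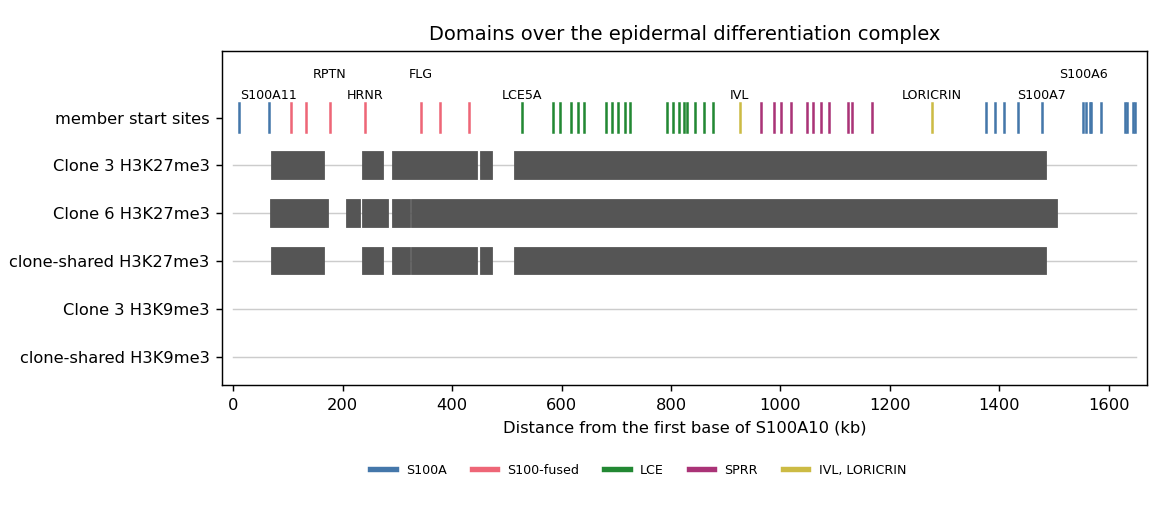
Member start sites (top, coloured by family) and the domains of the 5 lists (grey bars) by distance in kb from the first base of S100A10. The H3K27me3 bars cover 77.4% of the locus in Clone 3 and 83.9% in Clone 6, and both H3K9me3 rows are empty.

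The state changed at 4 places between neighbouring members, and promoter sequences are shown for the members on either side of 3 of them, the outer boundaries and the step from TCHH to RPTN. The remaining change, from RPTN to HRNR, is represented by RPTN alone, and the promoter of HRNR, with 1 CpG, is not printed. They are the 250 bases before the start site that RefSeq gives on GRCh38.p14, each on the minus strand and written 5′ to 3′, with CpG dinucleotides in capitals. At the first boundary S100A11, a calcium-binding protein made in many tissues, is the last member outside (chr1:152037005-152037254), and TCHHL1, a trichohyalin-like S100-fused gene, is the first inside (chr1:152089065-152089314).
S100A11: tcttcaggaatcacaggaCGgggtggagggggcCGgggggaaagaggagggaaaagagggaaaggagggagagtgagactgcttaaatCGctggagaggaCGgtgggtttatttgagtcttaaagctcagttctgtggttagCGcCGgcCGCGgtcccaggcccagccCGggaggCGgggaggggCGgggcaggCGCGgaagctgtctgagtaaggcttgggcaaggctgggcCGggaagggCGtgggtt
TCHHL1: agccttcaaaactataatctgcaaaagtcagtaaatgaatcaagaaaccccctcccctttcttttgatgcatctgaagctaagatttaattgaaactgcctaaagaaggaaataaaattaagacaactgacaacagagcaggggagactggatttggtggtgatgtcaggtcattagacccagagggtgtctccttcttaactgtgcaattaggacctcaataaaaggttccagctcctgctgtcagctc
At the next boundary TCHH, which encodes trichohyalin of the hair follicle's inner root sheath, is inside (chr1:152115445-152115694) and RPTN, which encodes the epidermal matrix protein repetin, is outside (chr1:152159229-152159478).
TCHH: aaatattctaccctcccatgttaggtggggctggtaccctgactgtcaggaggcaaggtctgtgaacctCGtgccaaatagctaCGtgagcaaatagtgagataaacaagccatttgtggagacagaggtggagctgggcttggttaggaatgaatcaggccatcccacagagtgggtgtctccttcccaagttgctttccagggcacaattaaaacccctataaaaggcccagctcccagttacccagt
RPTN: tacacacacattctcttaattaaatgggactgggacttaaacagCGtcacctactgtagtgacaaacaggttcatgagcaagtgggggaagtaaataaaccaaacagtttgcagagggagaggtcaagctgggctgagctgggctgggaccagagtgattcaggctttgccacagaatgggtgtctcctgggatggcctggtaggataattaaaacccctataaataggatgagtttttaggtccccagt
At the last boundary S100A7, the antimicrobial psoriasin, is inside (chr1:153460652-153460901) and S100A6, or calcyclin, is outside (chr1:153535992-153536241).
S100A7: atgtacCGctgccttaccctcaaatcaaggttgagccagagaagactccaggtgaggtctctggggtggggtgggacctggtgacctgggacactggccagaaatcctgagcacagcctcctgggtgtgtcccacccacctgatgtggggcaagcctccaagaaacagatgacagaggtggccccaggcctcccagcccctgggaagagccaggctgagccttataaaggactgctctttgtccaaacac
S100A6: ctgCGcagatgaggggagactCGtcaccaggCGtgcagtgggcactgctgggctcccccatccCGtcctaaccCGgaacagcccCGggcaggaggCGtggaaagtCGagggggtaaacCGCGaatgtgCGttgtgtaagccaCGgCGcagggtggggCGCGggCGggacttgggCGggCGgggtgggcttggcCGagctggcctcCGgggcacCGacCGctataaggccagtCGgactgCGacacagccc
These upstream runs held 15 CpGs in S100A11 and 24 in S100A6, but 0 in TCHHL1, 2 in TCHH, 1 in RPTN and 1 in S100A7. The CpG-poor sequence of RPTN thus stood outside a domain, unlike the CpG-poor sequences of TCHH and S100A7.

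S100A10 and S100A11, the first members, encode calcium-binding proteins that are found well beyond the skin. The start of S100A10, at 151993859, lay 59.1 kb before the first H3K27me3 domain in Clone 3 and 58.1 kb before it in Clone 6. S100A11 was much closer to the edge. Its start as GENCODE gives it, at 152047907, lay 5.09 kb outside in Clone 3 and 4.09 kb outside in Clone 6. RefSeq, like the canonical GENCODE transcript, starts the gene 10903 bases away, and that start was also outside, by 16.0 kb in Clone 3 and 1 kb less in Clone 6. The first domain began at 152053001 in Clone 3 and at 152052001 in Clone 6, a difference of 1 kb. All edges fell on whole kb in Clone 3 and on multiples of 2 kb in Clone 6, so this difference is no larger than the step of the lists.

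The S100-fused genes encode large proteins that carry an S100 domain and long internal repeats. TCHHL1 and TCHH shared the first domain, of 95 kb in Clone 3 (chr1:152053001-152148000) and 104 kb in Clone 6 (chr1:152052001-152156000). TCHHL1 started 36.1 kb inside in Clone 3 and 37.1 kb inside in Clone 6, and TCHH 32.6 kb and 40.6 kb inside. RPTN was the 1 member of this family outside. Its start at 152159228 lay 11.2 kb from the nearest domain in Clone 3 and 3.23 kb from it in Clone 6. The gap around the RPTN start measured 72 kb in Clone 3 (chr1:152148001-152220000) and 34 kb in Clone 6 (chr1:152156001-152190000). The domain edge moved into the RPTN gene in Clone 6, where 42.7% of the gene body was covered, against 0% in Clone 3. RPTN was the 1 member that a domain touched in one clone and not in the other.

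HRNR, which encodes the filaggrin-like protein hornerin, was the member closest to an edge on the inside. Its start at 152224193 lay 4.19 kb inside in both clones, and both domains opened at 152220001, within the gene. The domain covered 34.6% of the HRNR body in Clone 3 and 2 domains together covered 50.5% of it in Clone 6. FLG encodes filaggrin, the precursor of the skin's moisturising amino acids, and variants that stop it underlie ichthyosis vulgaris. Its start at 152325239 lay 51.2 kb inside in Clone 3 and 15.2 kb inside in Clone 6. All of the FLG body was covered in Clone 3 and 82.7% in Clone 6, where a gap of 4 kb cut it (chr1:152306001-152310000). FLG2, a filaggrin relative, started 69.0 kb inside in Clone 3 and 50.0 kb inside in Clone 6. CRNN, which encodes cornulin of stratified epithelia, started 14.7 kb inside in Clone 3 and 104 kb inside in Clone 6.

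The LCE genes are short, and their products are crosslinked into the envelope late. All 19 lay whole within the last and longest domain, together with the SPRR genes. LCE5A, the first, started 12.8 kb from the edge in Clone 3 and 201 kb from it in Clone 6, since the Clone 6 domain began further upstream and took in FLG, FLG2 and CRNN too. LCE7A, the last, started 362 kb inside in Clone 3 and 550.0 kb inside in Clone 6. IVL encodes involucrin, an early scaffold of the envelope. It started at 152908546, 411 kb inside in Clone 3 and 579 kb inside in Clone 6, the greatest depth of any member there. The SPRR genes encode crosslinking proteins that also rise in stressed epithelia, and SPRR1A at 484 kb was the deepest member in Clone 3. LORICRIN encodes loricrin, the main protein of the epidermal envelope, and started at 153259687, 208 kb inside in Clone 3 and 228 kb inside in Clone 6.

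The S100A genes were the family that the last edge divided. S100A8 and S100A9 encode the subunits of calprotectin, an antimicrobial protein of neutrophils and inflamed epithelium. S100A9 started 110.1 kb inside in Clone 3 and 130.1 kb inside in Clone 6, and S100A8 76.9 kb and 96.9 kb inside. S100A7 at 153460651 was the last member inside, by 7.35 kb in Clone 3 and 27.3 kb in Clone 6. The last domain ended at 153468000 in Clone 3 and at 153488000 in Clone 6, 20 kb further on. S100A6 at 153536244 lay 68.2 kb beyond that edge in Clone 3 and 48.2 kb beyond it in Clone 6. S100A13, the last member by start site, lay 163 kb and 143 kb beyond. The 20 kb between the clones' edges held no member start, because S100A7 and S100A6 start 75.6 kb apart.

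**Figure D2:**
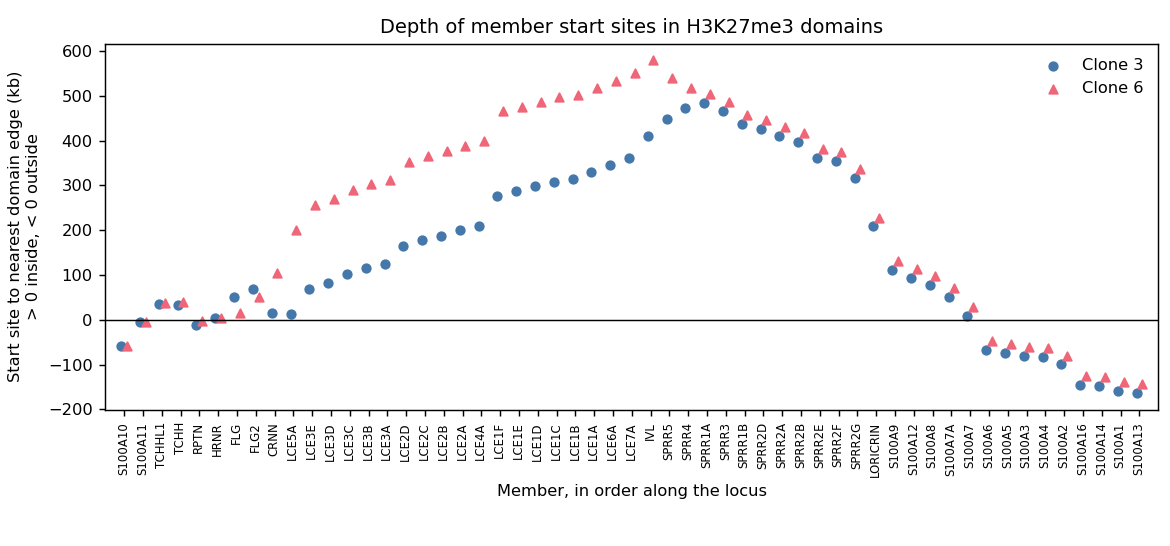
Distance in kb from each member's start site to the nearest H3K27me3 domain edge, positive inside and negative outside, for Clone 3 (circles) and Clone 6 (triangles), with members in order along the locus. Each clone has 3 members within 10 kb of an edge, and the sign is the same in both clones for all 55 members.

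The clones thus matched in the state of 55 of 55 members, 43 inside in both and 12 outside in both. Over all 20033 protein-coding genes the state matched in 96.2%, with 224 genes inside in Clone 3 only and 531 inside in Clone 6 only. Most of that match came from genes outside in both clones (90.9% of all). Of the 1821 genes inside in at least 1 clone, 1066 (58.5%) were inside in both, against 43 of 43 members, which share a few domains and so are not separate observations. Only 3 members in each clone lay within 10 kb of an edge: S100A11, HRNR and S100A7 in Clone 3, and S100A11, RPTN and HRNR in Clone 6. By the start of the canonical transcript S100A11 was not among them, which left 2 in each clone. The number of members at least 100 kb inside was 30 in Clone 3 and 35 in Clone 6. The median depth of the 43 members inside was 208 kb in Clone 3 and 374 kb in Clone 6. The clones therefore shared the members' states but cut the locus differently.

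Clone 3 had 5 H3K27me3 domains in the locus, which covered 1.28 Mb of it, and Clone 6 had 5, which covered 1.38 Mb. The clone-shared list had 6 domains, since it kept the gaps of both clones, and covered 77.2%. The last domain of Clone 3 (chr1:152498001-153468000) was 970 kb long, held 37 members from LCE5A to S100A7, and ranked 44 by length among 2600 domains. That of Clone 6 (chr1:152310001-153488000) was 1178 kb long, held 40 members from FLG to S100A7, and ranked 28 among 1959. By the number of protein-coding start sites these domains ranked first in their lists, with 45 in Clone 3 and 48 in Clone 6. The domains ranked next held 27 in Clone 3 and 31 in Clone 6, both on chromosome 11. The members made up 25.7% of the 167 chromosome 1 genes inside H3K27me3 domains in Clone 3, and 22.6% of the 190 in Clone 6.

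Each clone list carries a pair of unnamed scores per domain, and neighbouring domains that carry an identical score are read here as pieces of 1 wider domain in one of the merged inputs. All 5 domains of Clone 6 had the same first score of 636, which no other domain of that list had, over a span of 1436 kb that included the gap at RPTN. In Clone 3, 4 domains from HRNR to S100A7 had the same second score of 266, over 1248 kb, and the domain of TCHHL1 and TCHH had its own score of 30.0. An equal score is not proof of this, as the first score of the HRNR domain in Clone 3 (36.3) also occurred in 1 domain on chromosome 3. By this reading RPTN lay in a gap of 1 of the 2 merged inputs in Clone 6. In Clone 3 neither score was shared across the gap of 72 kb that holds the RPTN start, so both inputs broke somewhere within it. Whether both breaks covered the RPTN start cannot be told from the merged list.

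Several of the short gaps lay over repeated sequence. Of the positions of the whole locus, 7.64% began a 50-base word that occurs more than once in hg38, the length of 1 read of a pair. In Clone 3 the share was 52.6% in the gap of 18 kb between HRNR and FLG and 59.8% in the gap of 6 kb after CRNN, against 4.30% to 10.5% in the 5 domains of the locus. In Clone 6 the gap of 6 kb inside HRNR reached 66.4%, that of 8 kb between HRNR and FLG 69.6%, and that of 4 kb inside FLG 43.2%. The 5 Clone 6 domains of the locus ranged from 4.79% to 28.0%. The share was lower in the gap at RPTN, at 10.2% in Clone 3 and 1.34% in Clone 6, and in the gap of 42 kb before LCE5A in Clone 3, at 11.5%, just above the highest domain there. The HRNR and FLG genes themselves, with their tandem repeats, had 38.2% and 16.5% of such words. The part of repeated sequence in the gaps was not tested.

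**Figure D3:**
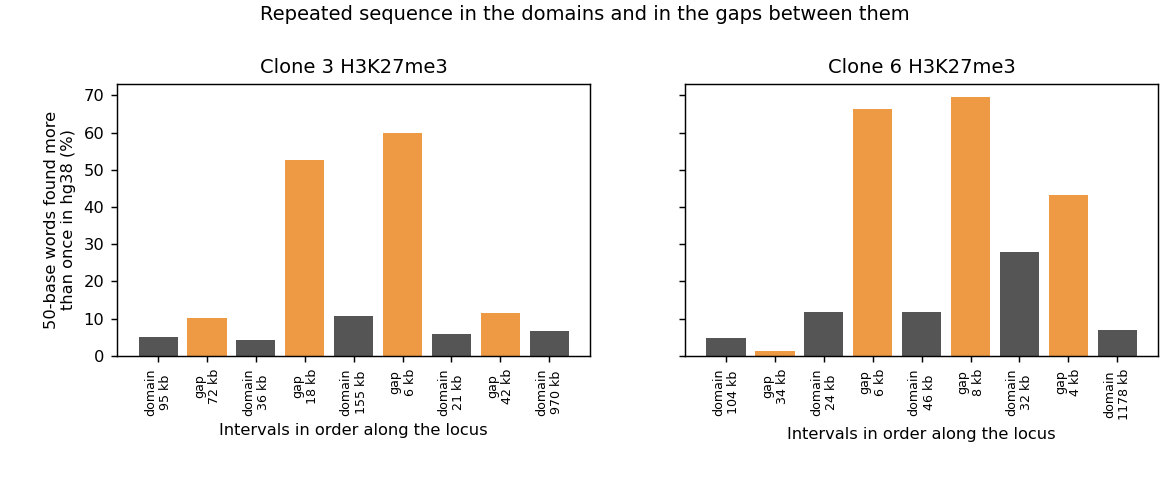
Share of 50-base words that occur more than once in hg38, in percent, for each H3K27me3 domain (grey) and each gap (orange) in order along the locus, in Clone 3 (left) and Clone 6 (right). The gaps of 18 and 6 kb in Clone 3 and of 6, 8 and 4 kb in Clone 6 stand at 43.2% or more, above the domains drawn, while the first gap, at RPTN, is at 10.2% and 1.34% and the gap of 42 kb in Clone 3 is at 11.5%.

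No H3K9me3 domain touched the locus, and none of the 55 gene bodies overlapped one by a base. The nearest H3K9me3 domain before S100A10 lay 8.76 Mb away and was 16 kb long (chr1:143208001-143224000) in both lists. The nearest after the last member lay 55.2 Mb away in Clone 3 and 73.9 Mb away in the clone-shared list. H3K9me3 domains were less frequent over the genes of chromosome 1 (1.99% in Clone 3) than over all genes. The absence of a called domain does not show that the mark was absent, since a domain caller reports only broad runs above its own threshold.

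Base composition moved with the state of the members. In a window of 100 kb around the start, the GC content of the 43 members inside had a median of 41.1% (37.3% to 47.1%), against 48.5% (42.1% to 49.5%) for the 12 outside. The ranges overlapped, and the members outside with the lowest GC were RPTN at 42.1%, S100A11 at 42.8% and S100A10 at 43.3%. Within the S100A family the 5 genes inside ranged from 45.4% to 47.1% and the 11 outside from 42.8% to 49.5%. The SPRR genes had the lowest median, 38.8%. CpG density in the 2 kb around the start had a median of 7 per kb inside (1.5 to 25) and 14 per kb outside (3 to 68.5). Within the S100A family the medians lay closer, at 12.5 per kb inside (6.5 to 13) and 14.5 per kb outside (10 to 68.5). S100A10 was the highest at 68.5 per kb and LCE3A the highest among members inside, at 25 per kb. The part of base composition in the domain calls was not tested.

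**Figure D4:**
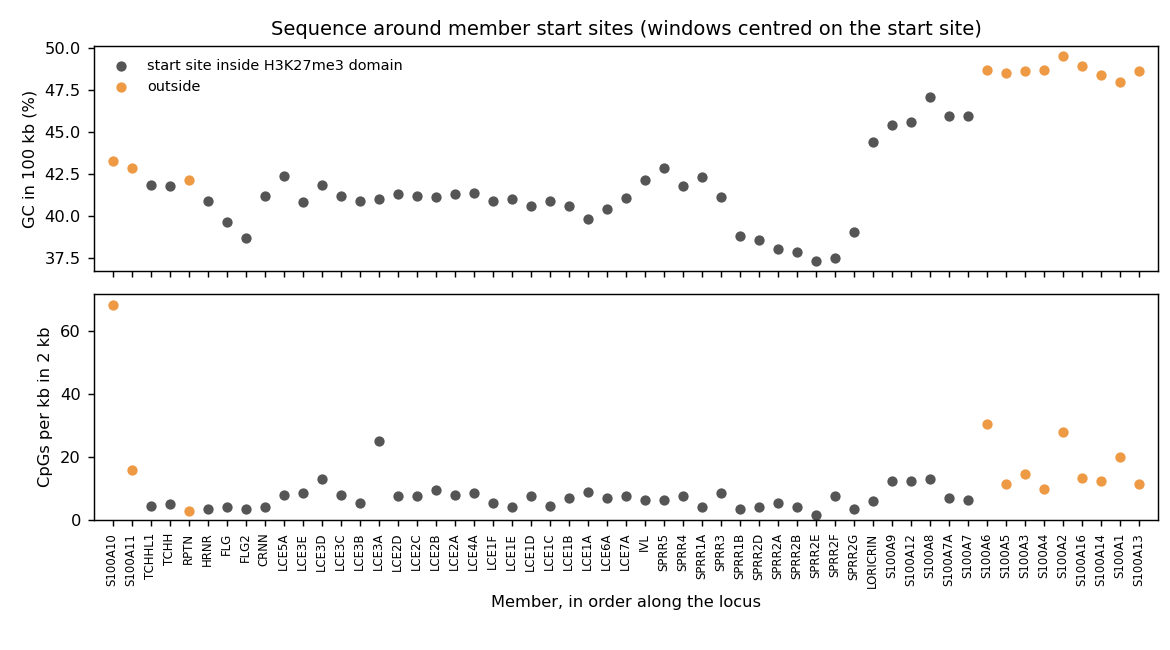
GC content in 100 kb (top, percent) and CpGs per kb in 2 kb (bottom) around each member's start site, in order along the locus, coloured by H3K27me3 state. GC rises from a median of 41.1% inside to 48.5% outside, and RPTN is the member outside with the fewest CpGs, 3 per kb.

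The promoters were compared over the RefSeq window of 250 bases before to 50 bases after the start. A promoter was matched for 52 members, all but LCE1B, SPRR2D and SPRR2E, and each RefSeq start had the state of its GENCODE start. The 40 promoters inside held a median of 2 CpGs (0 to 6), and the 12 outside 5.5 (1 to 32), against 21 over 21613 promoters of protein-coding genes, members included. Only S100A10 with 32 CpGs, S100A6 with 31 and S100A11 with 22 reached that median, and all 3 were outside. The other 9 members outside held 1 to 11, so most were CpG-poor like the members inside. Letters were searched on both strands. The TATA-box letters TATAAA occurred in 27 of 40 promoters inside (67.5%), in 3 of 12 outside (25.0%), and in 9.45% of all. They occurred in 8 of 9 SPRR promoters, 5 of 5 S100A promoters inside and 9 of 18 LCE promoters. TGACTCA, the AP-1 consensus letters (TGAGTCA on the other strand), occurred in 7 of 40 inside (17.5%) and 3 of 12 outside (25.0%), against 4.03% of all. They were found in IVL, LORICRIN, 5 of 9 SPRR promoters and 3 S100A promoters outside (S100A5, S100A3 and S100A2), and in 0 of 7 S100-fused and 0 of 18 LCE promoters. The looser TGANTCA, which contains that motif and also takes TGAATCA and TGATTCA, occurred in 14 of 40 inside (35.0%) and 4 of 12 outside (33.3%), against 6.17% of all, and in 6 of 7 S100-fused promoters. GGGCGG, the GC-box letters, occurred in 2 of 40 inside (5.00%) and 4 of 12 outside (33.3%), against 56.8% of all. A match of letters is a description of the sequence and does not show that a factor bound.

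**Figure D5:**
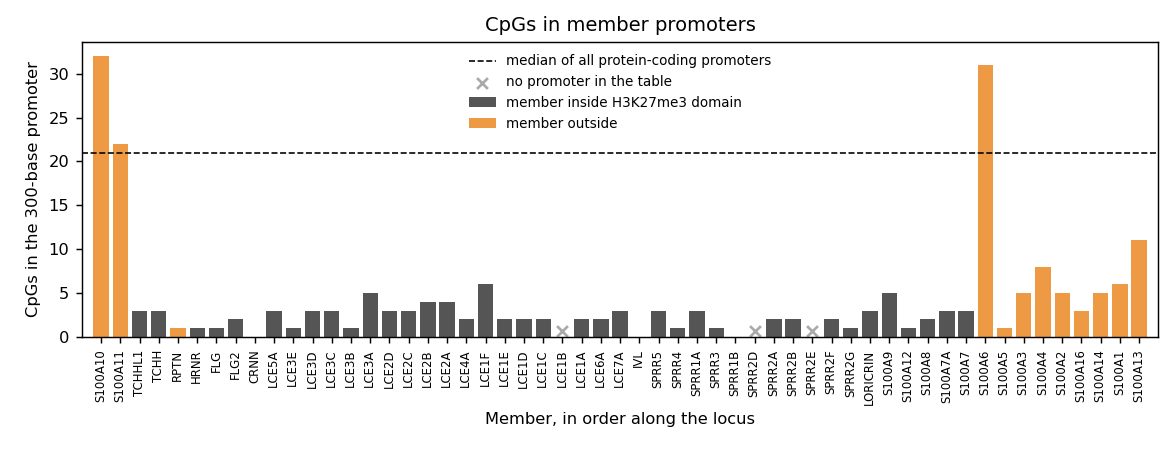
CpGs in the promoter (250 bases before to 50 after the start) of each of 52 members, in order along the locus, coloured by H3K27me3 state, with the median of all protein-coding promoters (21) as a dashed line. Only S100A10, S100A11 and S100A6 reach the line, and crosses mark the 3 members without a promoter in the table.

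The 8 protein-coding genes that lie among the members without belonging to their families started inside H3K27me3 domains in all 8 cases in both clones and in the clone-shared list, and in no H3K9me3 domain. All 8 lay in the same last domain, of 970 kb in Clone 3 and 1178 kb in Clone 6, and so follow from its extent. They were CRCT1, C1orf68, KPRP, SMCP, LELP1, PRR9, PGLYRP3 and PGLYRP4. KPRP encodes a keratinocyte proline-rich protein, PGLYRP3 and PGLYRP4 encode peptidoglycan recognition proteins, and SMCP encodes a sperm mitochondrial protein. Flanking genes are given beside the shares over all genes, 6.44% in Clone 3 and 7.97% in Clone 6, from which counts this small cannot be told apart. Of the 10 protein-coding genes before S100A10, 0 started inside in Clone 3 and 1 in Clone 6, LINGO4, in a separate domain of 34 kb. Of the 10 after the last member, 0 did in either clone. The 4 S100 genes on other chromosomes (S100B, S100P, S100G and S100Z) started outside the domains of every list, which at these shares says nothing particular about them.

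Genes of the cornified envelope and of late keratinocyte differentiation at other places in the genome were also examined. Of 21 listed, 3 (14.3%) started inside an H3K27me3 domain in Clone 3, in Clone 6 and in the clone-shared list, against 6.44%, 7.97% and 5.32% of all protein-coding genes, and 0 in an H3K9me3 domain. The 3 were KRT1 and KRT2, suprabasal keratins that shared 1 domain of 170 kb in Clone 3 and 320 kb in Clone 6, and CASP14, a protease that processes filaggrin, in a domain of 276 kb and 298 kb. The transglutaminases TGM1, TGM3 and TGM5, which crosslink the products of the complex, started outside every domain.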

How the data were processed

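Domain lists of H3K27me3 and H3K9me3 from the NoDox clones of HCT116 were used as deposited, with 7 samples grouped by clone and mark from their labels. Per the paper's methods and the submitters' processing notes, the authors trimmed read pairs of 50 bases with Trim Galore 0.5.0, aligned them to hg38 with Bowtie2 2.3.5, removed duplicates, called domains with Enriched Domain Detector at default settings and kept coordinates found in both replicates. The deposited clone lists also hold a pair of scores per domain, whose scale is not given in the sources used here, and the authors' score values served only to order domains and to find pieces with an equal score. The methods give a minimum number of read pairs per library, but the lists do not hold the depth reached, so its effect on precision is unknown.

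Gene records came from GENCODE 44. A member counted as inside when the first base of its record lay in a domain. No test was run, since neighbouring members share domains and the lists hold replicates only as merged domains with unnamed scores. The fixed design named the members beside each change of state, with FLG, LORICRIN, IVL, S100A8, S100A9 and the first and last members, and other genes only where inside a domain; further genes were named after their values were seen. The members and lists were chosen with earlier results of these data known. Repeated 50-base words were counted on both strands over the 194 sequences of hg38 (3099750718 bases). Promoters were RefSeq sequences on GRCh38.p14. Both, with the promoter motifs, were added after the domains had been seen. Alternatives were the canonical transcript's start, gene bodies, domains of at least 100 kb, edges moved by 10 kb, the upper 50% of domains by the lower score, members without S100A genes, chromosome 1 or autosomes as background, a wider locus and windows of 10 kb. The interval code was tested on simulated data. Python 3.11.15, numpy 2.4.6, pandas 2.3.3 and matplotlib 3.10.9 were used. The state of 1 listed regulator is not reported here.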

Additional observations from a re-analysis of the deposited data

How the results depend on the processing

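The count of members inside stayed within 1.5 times its reported value under every alternative tried. In the H3K27me3 lists the lowest and highest counts of 55 were 40 and 44 for Clone 3, 41 and 45 for Clone 6, and 40 and 44 for the clone-shared list. Without the 16 S100A genes the count was 38 in each, out of fewer members than 55, and RPTN alone was then outside. The members that changed state under any of these settings were S100A11, TCHHL1, TCHH, RPTN, HRNR, FLG and S100A7. Both H3K9me3 counts were 0 throughout. The members with the same state in both clones numbered 54 of 55, without RPTN, when any base of the gene counted or when 10 kb outside a domain still counted as inside. In alternatives chosen after seeing the data it was 54 with the whole gene body (without FLG), with domains narrowed by 10 kb (without S100A7) and with the upper 50% of domains by score (without HRNR), and 53 with domains of at least 100 kb (without TCHHL1 and TCHH).

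Taking chromosome 1 alone moved the share of all genes inside to 8.10% in Clone 3, 9.22% in Clone 6 and 7.04% in the clone-shared list for H3K27me3, and to 1.99% and 1.94% for H3K9me3 in Clone 3 and in the clone-shared list. Widening the locus by 500 kb on each side lowered its H3K27me3 coverage to 48.2%, 53.5% and 48.1%. The flanks added no covered sequence in Clone 3 or in the clone-shared list, and only the 34 kb domain of LINGO4 in Clone 6. In windows of 10 kb the median GC content inside minus outside was -11.8 percentage points (reported windows: -7.44) and the CpG density -9.2 per kb (reported: -7), in both clones. The clone-shared lists carry no scores, so the ranking by score was not run on them. Leaving out a replicate was not possible, and depth cannot be weighed, because replicates enter only as merged domains. No paired analysis was possible because the scores of a domain are not labelled by replicate.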

Other observations

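Among 14 listed regulators of epidermal differentiation, 3 had start sites with an H3K27me3 state that differed between the clones. Over all protein-coding genes, 1.12% were inside in Clone 3 only and 2.65% in Clone 6 only. SATB1, a chromatin organiser, started inside a domain of 288 kb in Clone 3 only. GRHL3 and GATA3, transcription factors of the epidermal barrier, started inside in Clone 6 only, 3.56 kb and 6.62 kb from the nearest edge. These states were read at the first base of each GENCODE record. In Clone 3 a domain opened further along the GRHL3 record, and in Clone 6 the domain at the GATA3 start ended within the GATA3 record. The canonical start and the gene body were tried for the members but not for the regulators. Whether the contrast between clones holds at other starts of these genes was not tested. MAF, a transcription factor, was the 1 listed regulator in an H3K9me3 domain, in Clone 3 and in the clone-shared list, where 3.35% and 3.24% of all genes were inside, so that 1 gene of 14 is no result about the regulators. These differences between clones rest on merged lists and were not tested.

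Strand also followed the families. All 7 S100-fused genes lay on the minus strand, as did 13 of 16 S100A genes, whereas 15 of 19 LCE genes lay on the plus strand and the SPRR genes were split, 5 plus and 6 minus. Gene length had a median of 1698 bases inside (270 to 23075) and 5947 outside (1646 to 15402). The short LCE and SPRR genes, with medians of 1257 and 1734 bases, were all inside. Among the S100-fused genes the 6 inside had a median of 10200 bases (4924 to 23075), a range that includes the 5634 of RPTN. Within the S100A family the 5 genes inside had a median of 2908 bases (1042 to 6703). The 11 outside had a median of 6260 bases (1646 to 15402), so the ranges overlapped.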
